A study of Mus musculus with 12 samples.

Results

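The 10 genes described here are 6 genes of the osteoclast (Acp5, Ctsk, Calcr, Oscar, Atp6v0d2 and Tnfrsf11a) and 4 genes of the signals that make and restrain it (Tnfsf11, Tnfrsf11b, Csf1 and Csf1r). They were taken as every non-control probe whose gene name on the array was one of these symbols, which gave 15 probes of 41174 and 10 gene names of 27962. No measured value entered that choice. The osteoclast is the large multinucleated cell of the monocyte lineage that dissolves mineral and digests matrix, and in the growth plate it and related cells lie where the hypertrophic cartilage meets the bone front. RANKL, the product of Tnfsf11, is made by osteoblasts, osteocytes and hypertrophic chondrocytes and drives osteoclast formation through RANK, the product of Tnfrsf11a. Osteoprotegerin, the product of Tnfrsf11b, is a soluble decoy that binds RANKL and holds it from RANK. M-CSF, the product of Csf1, keeps the precursors alive through its receptor CSF1R.

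RNA came from the tibial growth plate hypertrophic zones of 12 mice aged 14 days, amplified before labelling and hybridised to 1 array per mouse. The Schmid mice carried the collagen X mutation Col10a1 p.Asn617Lys on the Schmid background as a homozygous knock-in, and their controls were wildtype mice on that background (wildtype (Schmid)). The Cog mice carried the ColXTgcog transgene on the Cog background, in which the Col10a1 promoter drives a misfolding thyroglobulin in hypertrophic chondrocytes, and their controls were wildtype mice on that background (wildtype (Cog)). Hemizygous and homozygous Cog mice were not told apart in the sources used here. Each of the 4 groups had 3 mice, no group was treated, and both mutants make misfolded protein in the chondrocyte, not in the osteoclast. The tissue was a microdissected zone, so RNA of osteoclasts, marrow cells, vessels and bone cells at its lower edge entered the samples. In such bulk RNA, fewer cells of a type and less RNA per cell cannot be told apart.

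Before the results, a few facts of the arrays bear on them. The 3 Schmid arrays lay on 1 slide, the 3 wildtype (Cog) arrays on another, 2 wildtype (Schmid) arrays on the third, and the last wildtype (Schmid) array shared its slide with the 3 Cog arrays, so that slide and genotype cannot be told apart. Spots well above background made up 58.9 to 61.8% of an array in Schmid and 39.6 to 59.4% in the other groups. The median signal of the negative controls was 202 to 617 in Schmid and 977 to 1894 in the other groups. The 8 chondrocyte markers gave a summed log2 signal of 20.26 to 20.42 in Schmid and, without overlap, 20.63 to 20.94 in wildtype (Schmid). The sum was 20.57 to 20.75 in Cog and 20.63 to 20.84 in wildtype (Cog). Of 10 osteoclast markers 9 were well above background on at least 1 array, Atp6v0d2 being the other one. The mouse thyroglobulin probes were 7.90 and 7.69 log2 units higher in Cog, which carries the thyroglobulin transgene, than in wildtype (Cog). On these arrays 10.4% of the probes on rows 1 to 159 were called lower in Schmid, against 2.27% on rows 160 to 532. Ctsk (row 88), Acp5 (row 156) and 1 probe of Csf1r (row 129) lie in the first of these stretches.

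The sequences that the first result turns on are those of the Ctsk and Acp5 probes, since their values moved together across mice. The Ctsk probe matches the + strand of chromosome 3 and the Acp5 probe the - strand of chromosome 9 in build mm7, at chr3:95380674-95380918 and chr9:22009367-22009426 (the Ctsk span of 245 bases is longer than the 60-base probe). They are shown 5′ to 3′, with nothing in capitals:
Ctsk probe: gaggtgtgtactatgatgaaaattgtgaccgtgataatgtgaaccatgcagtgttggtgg
Acp5 probe: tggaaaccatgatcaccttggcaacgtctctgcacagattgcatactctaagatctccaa
The longest run that the Ctsk and Acp5 probes share on either strand is 7 bases, so they are distinct targets and not near copies of one sequence.

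The 250 bases before the RefSeq start of both genes (GRCm38.p6) are shown for the same reason, with the 6-base motifs found there in capitals. GAGGAA is a core that the myeloid factor PU.1 can bind, and CATGTG is an E-box of the kind that MITF and TFE3 can bind. The Ctsk window lies at chr3:95498960-95499209 on the + strand and the Acp5 window, of the most 3′ of 3 listed starts, at chr9:22130599-22130848 on the - strand:
Ctsk: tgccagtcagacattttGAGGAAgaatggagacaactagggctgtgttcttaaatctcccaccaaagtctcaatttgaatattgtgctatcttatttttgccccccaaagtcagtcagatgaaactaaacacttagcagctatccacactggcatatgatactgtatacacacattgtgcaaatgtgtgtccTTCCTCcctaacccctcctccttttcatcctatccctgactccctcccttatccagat
Acp5: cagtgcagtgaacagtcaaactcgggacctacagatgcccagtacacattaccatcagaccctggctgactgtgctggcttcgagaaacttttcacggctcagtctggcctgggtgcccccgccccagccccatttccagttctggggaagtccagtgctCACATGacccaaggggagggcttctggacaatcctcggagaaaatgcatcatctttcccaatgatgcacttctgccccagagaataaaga
The Ctsk window held GAGGAA 233 bases before the start and, read on the other strand as TTCCTC, 58 bases before it. The Acp5 window held CATGTG on the other strand (CACATG) 90 bases before the start. The Oscar window held GAGGAA 237 bases and CATGTG 6 bases before its start. The other listed Acp5 windows and those of Calcr, Tnfrsf11a, Tnfsf11 and Csf1 held neither GAGGAA nor CATGTG. Of 32851 promoter windows of this length, 23.3% held GAGGAA and 12.3% held CATGTG on either strand. TGANTCA, the AP-1 letters, was found in 6.75% of all windows and CACGTG in 6.02%, and neither was in any of the 10 windows that RefSeq listed for 7 of the 10 genes. A match is a description of the letters, not a binding site.

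**Figure D1:**
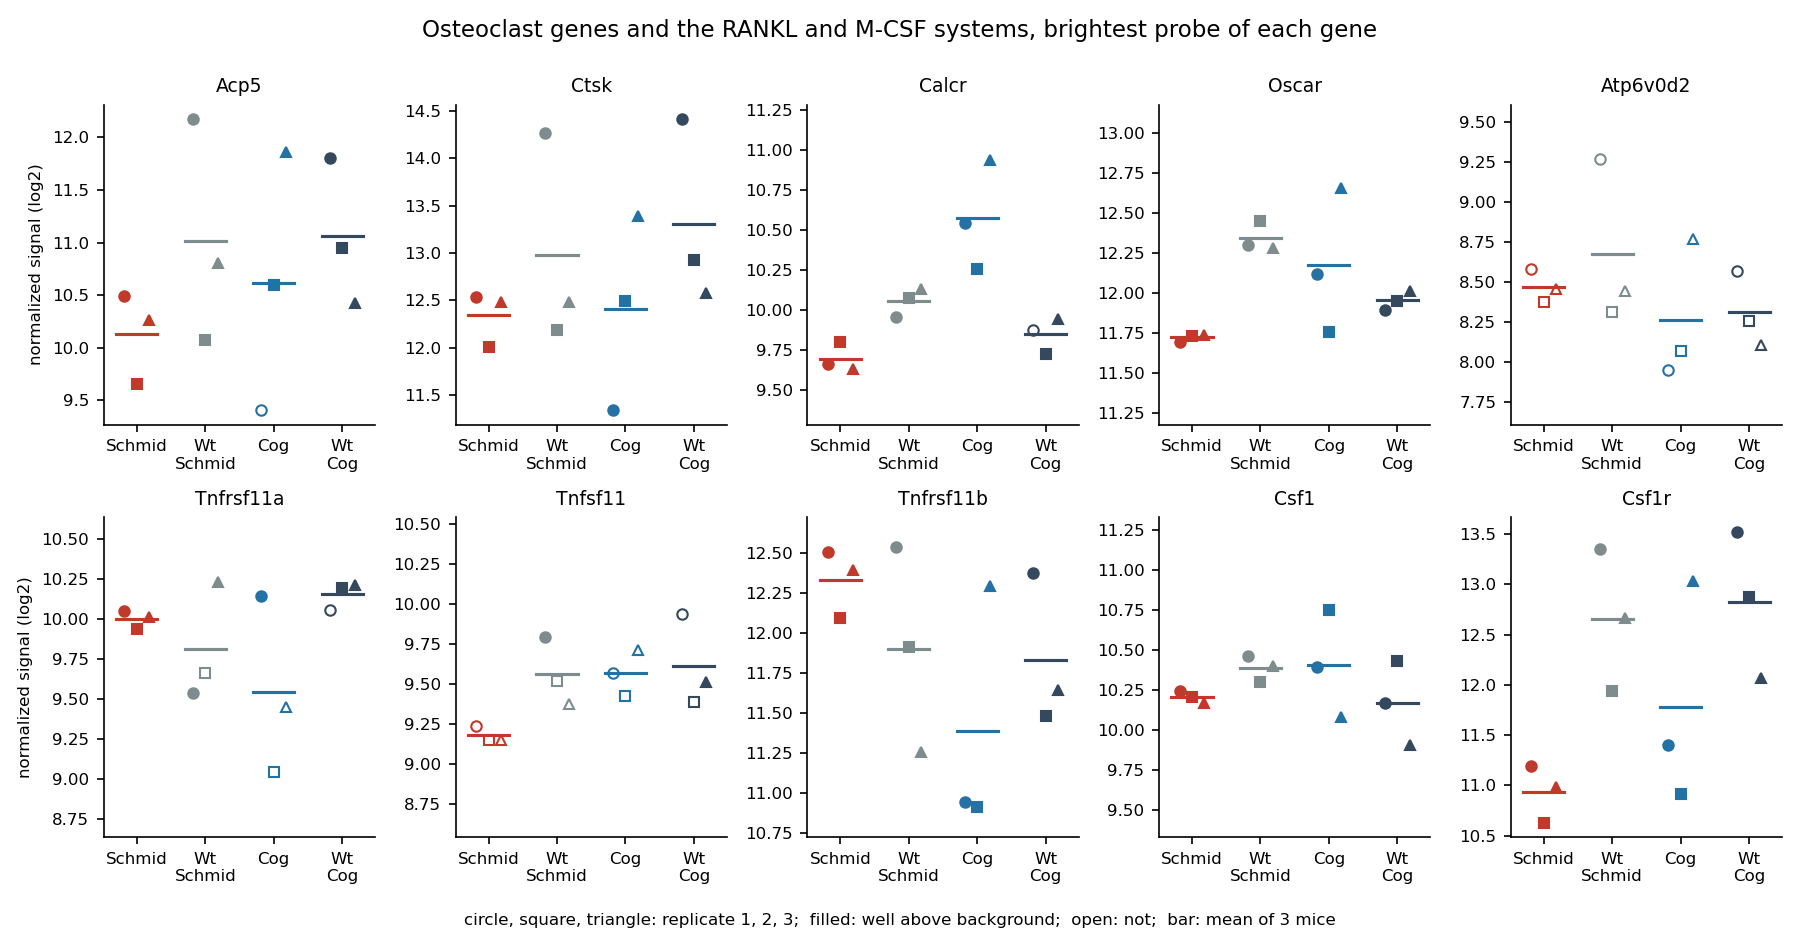
Log2 normalized intensity of the brightest probe of each of the 10 genes on the 12 arrays, by group. Circles, squares and triangles are replicates 1, 2 and 3, a filled symbol was well above background and an open one was not, and a bar is the mean of 3 mice, Wt Schmid and Wt Cog being the wildtype groups. Csf1r lay lower in all 3 Schmid mice than in their 3 wildtype mice, Calcr lay highest in the 3 Cog mice, and Acp5 and Ctsk were spread widely within the 2 wildtype groups and Cog.

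Calls at the osteoclast and RANKL genes were few in either mutant, and 15 probes are too few to set them apart from the share of all probes. In Schmid against wildtype (Schmid), 1 of the 15 probes, of Csf1r, was lower with an adjusted p of at most 0.05 and a change of at least 2-fold. In that comparison 10.5% of all probes were called (5.78% higher and 4.69% lower). In Cog against wildtype (Cog), 0 of 15 were called in the limma fit, where 2.31% of all probes were (1.56% higher and 0.748% lower). An adjusted p of at most 0.05 with a change of any size was reached by 3 of 15 in Schmid, against 24% of all probes, and by 1 of 15 in Cog, against 4.58%. With an unadjusted p of at most 0.05 these counts were 5 in Schmid, against 39.3% of all probes, and 4 in Cog, against 21.3%. The median change of the 15 probes in Schmid was -0.38 on the log2 scale, against -0.06 for all probes, and 12 of the 15 were below 0. In Cog the median was -0.05 and that of all probes -0.00. The Schmid median is the value of a Tnfsf11 probe and the Cog median that of the Atp6v0d2 probe. Both probes were below background on most or all arrays. The 3 mice of the 2 groups did not overlap for 7 of 15 probes in Schmid, each of them lower, where 45.3% of all probes did not overlap. In Cog this held for 3 of 15 probes (2 higher and 1 lower), against 29.4% of all probes. The median standard error of a change was 0.26 log2 units for the members and 0.20 for all probes. All these counts include probes mostly below background (Atp6v0d2, Tnfsf11 and the dimmer Tnfrsf11a probe) and more than 1 probe of some genes.

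**Figure D2:**
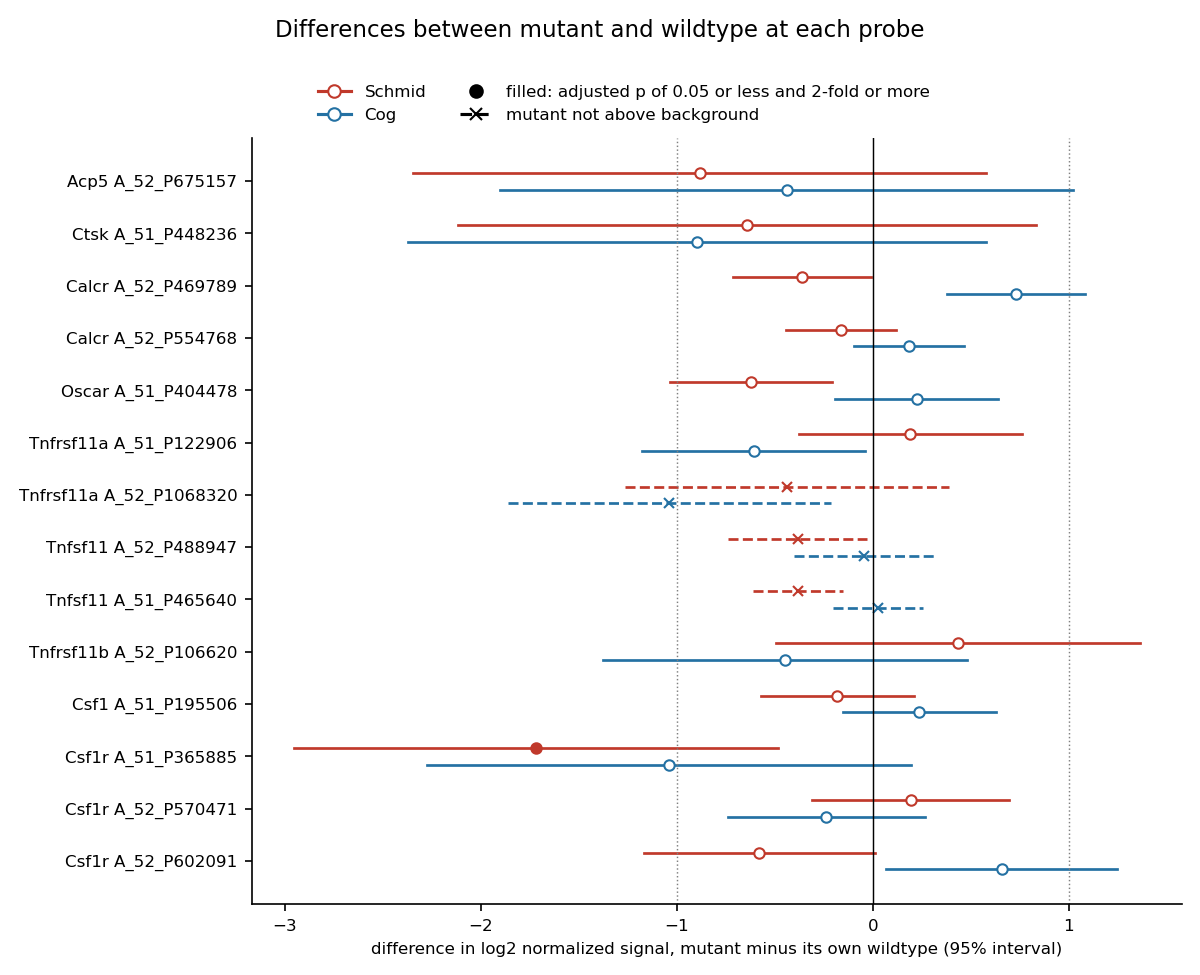
Difference in log2 normalized signal, mutant minus its own wildtype, for Schmid and Cog with 3 mice in each group, at 14 probes (the Atp6v0d2 probe, below background on every array, is left out). Bars are 95% intervals from the limma fit, a filled point passed the call, dotted lines mark a 2-fold change, and crosses with dashed bars mark probes below background in all 3 mutant mice, where the difference is no fold change. The 1 filled point is the brightest Csf1r probe at -1.72 in Schmid.

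The first genes in order of role are the matrix-digesting enzymes. Ctsk encodes cathepsin K, the acid protease with which osteoclasts cut type I collagen. Log2 intensities of Ctsk were 12.53, 12.01 and 12.48 in the 3 Schmid mice and 14.27, 12.19 and 12.49 in wildtype (Schmid). They were 11.34, 12.50 and 13.39 in Cog and 14.42, 12.92 and 12.58 in wildtype (Cog). The Schmid mice lay close together (SD 0.29), while the other groups had SDs of 0.98 to 1.13, and mutants and wildtypes overlapped in both comparisons. The change in Schmid was -0.64 (95% interval -2.12 to 0.83, adjusted p = 0.502), and that in Cog -0.90 (-2.37 to 0.58, adjusted p = 0.477). With the trend along array rows removed the Schmid value was -0.39 (adjusted p = 0.719). Intervals of this width leave room for a 4-fold fall as well as for no change.

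Acp5 encodes tartrate-resistant acid phosphatase, the enzyme whose stain marks osteoclasts in sections. Its log2 intensities were 10.49, 9.65 and 10.26 in Schmid and 12.17, 10.08 and 10.80 in wildtype (Schmid). They were 9.41, 10.59 and 11.86 in Cog and 11.80, 10.95 and 10.43 in wildtype (Cog), and Cog replicate 1 was the only array on which the spot was not well above background. Groups overlapped again. Schmid mice changed by -0.88 (95% interval -2.34 to 0.58, adjusted p = 0.345). Cog mice changed by -0.44 (-1.90 to 1.02, adjusted p = 0.747).

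The spread of these enzymes within groups was shared. As deviations from the mean of each mouse's own group, Acp5 and Ctsk had a Pearson r of 0.964 and a Spearman rho of 0.958 over 12 mice (exact permutation within groups, p = 0.000772, the smallest it can give, and 0.0162 after adjustment over the 21 pairs of the 7 genes measured on at least 11 arrays). Without the 2 mice farthest from the median in Acp5, r was 0.943. Wildtype (Schmid) replicate 1 lay 1.15 log2 units above its group in Acp5 and 1.29 in Ctsk. Cog replicate 3 lay 1.24 and 0.98 above, and wildtype (Cog) replicate 1 lay 0.74 and 1.11 above. The highest mouse of a group in Ctsk was thus also its highest in Acp5 in all 4 groups. No other pair of the 7 genes had an adjusted p under 0.117, although Acp5 and Csf1r (r = 0.853) moved in the same sense. Both probes were read on the same arrays.

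**Figure D3:**
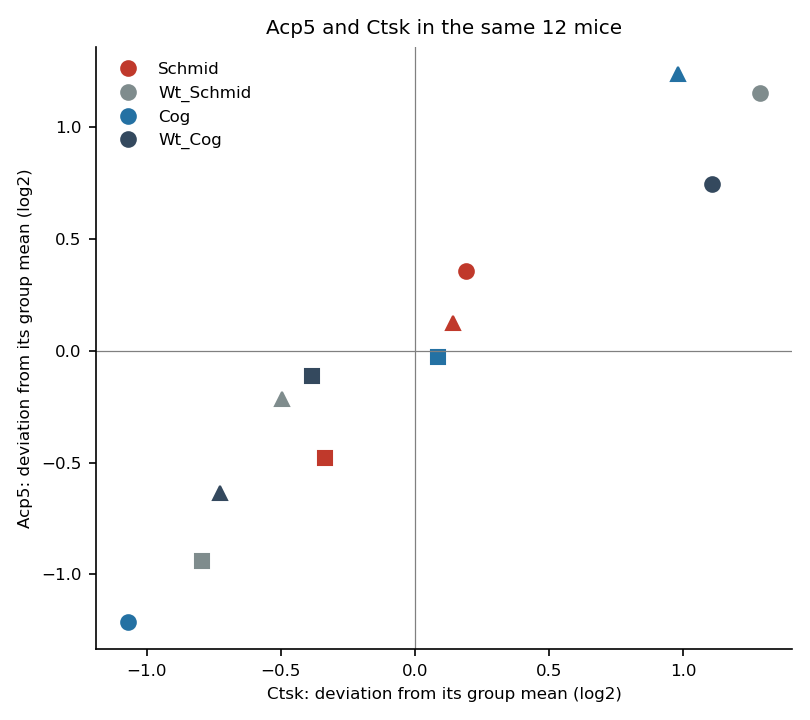
Deviation of Acp5 (vertical axis) against deviation of Ctsk (horizontal axis) from the mean of each mouse's own group, in log2 units, for 12 mice coloured by group, with circle, square and triangle for replicates 1, 2 and 3. The points lie along one line, with 1 mouse each of wildtype (Schmid), Cog and wildtype (Cog) at the upper right and the 3 Schmid mice nearer the centre.

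The 3 mice at the upper end of that line were also the highest of their groups in genes of several cell types. This held in all 3 groups for 3 of the 8 other osteoclast markers (Mmp9, Tm7sf4 and Atp6v0d2, the last below background throughout), against 6.16% of 27944 genes at their brightest probes. It held as well for 5 of 11 macrophage markers, Csf1r among them, 2 of 8 osteoblast markers and 2 of 6 endothelial markers. Of 7 neutrophil markers it held for 1 (Mpo), and of 5 red cell markers for 0. Of 8 chondrocyte markers it held for Col10a1, Mmp13 and Matn3, genes of the hypertrophic cell and its matrix. Some other osteoclast markers had another order in the wildtype groups. Oscar was highest in wildtype (Schmid) replicate 2 and wildtype (Cog) replicate 3, and Calcr in replicate 3 of both wildtype groups. Itgb3, an integrin of the osteoclast's attachment, was lowest in wildtype (Schmid) replicate 1 (12.91) but highest in wildtype (Cog) replicate 1 (15.06). Nfatc1 was highest in replicate 1 of both wildtype groups (11.73 and 11.20), while within Cog replicate 3 was its lowest (10.28). The part of these cell types in the shared spread was not tested. This count was chosen after the values were seen. Mmp9, the gelatinase of osteoclasts and related cells at the cartilage front, was at 15.91 in wildtype (Schmid) replicate 1, 15.22 in Cog replicate 3 and 16.26 in wildtype (Cog) replicate 1. Mmp13, the collagenase of the late hypertrophic chondrocyte, was at 16.36, 15.32 and 16.64 in the same 3 mice.

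Atp6v0d2 encodes the d2 subunit of the proton pump with which osteoclasts acidify the bone surface. Its probe (chr4:19804305-19804364, - strand, mm7) read 7.95 to 9.27 and was well above background on 0 of 12 arrays, so no fold change is given. The probe has a GC content of 26.7%, and 3.55% of the probes on the array have that or less.

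Of the receptors that mark the mature cell, Calcr responded differently in the mutants. It encodes the calcitonin receptor, through which calcitonin halts resorption. Log2 intensities of the brighter probe (A_52_P469789, chr6:3638463-3638522, - strand, mm7) were 9.66, 9.79 and 9.63 in Schmid and 9.96, 10.07 and 10.13 in wildtype (Schmid). They were 10.54, 10.25 and 10.93 in Cog and 9.87, 9.72 and 9.94 in wildtype (Cog). All 3 Schmid mice lay below and all 3 Cog mice above their wildtypes. The probe was well above background on 11 of 12 arrays, wildtype (Cog) replicate 1 being the exception. The change was -0.36 in Schmid (SE 0.16, 95% interval -0.71 to -0.01, adjusted p = 0.121). In Cog it was 0.73 (SE 0.16, 0.38 to 1.08, adjusted p = 0.0314), 1.66-fold and so below the 2-fold call. The change in Schmid minus that in Cog was -1.09 (SE 0.22, -1.59 to -0.59, adjusted p = 0.0103), which passed the call. In this test 2 of the 15 probes were called, both negative, as were 10.3% of all probes (5.88% with a negative difference). Without Cog replicate 3 this difference was -0.91 (adjusted p = 0.0121) and no longer reached 2-fold.

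The second Calcr probe (A_52_P554768, chr6:3652673-3652732) was dimmer and was well above background on 8 of 12 arrays. It read 9.61 to 9.70 in Schmid, 9.64 to 9.97 in wildtype (Schmid), 9.59 to 9.91 in Cog and 9.46 to 9.71 in wildtype (Cog). It changed by -0.16 in Schmid with an adjusted p of 0.365. In Cog it changed by 0.19 with an adjusted p of 0.436, and the Schmid change minus the Cog change was -0.35 (-0.74 to 0.05, adjusted p = 0.206). The signs are those of the brighter probe, but the groups overlapped and no test passed. The 2 wildtype groups did not pass the call for either Calcr probe.

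Oscar encodes the osteoclast-associated receptor, which binds collagen and gives osteoclast precursors a costimulatory signal. Its probe (A_51_P404478) matches chr7:3233492-3233551 on the - strand in mm7. Log2 intensities of Oscar were 11.69, 11.73 and 11.74 in Schmid and 12.30, 12.45 and 12.28 in wildtype (Schmid). They were 12.11, 11.75 and 12.66 in Cog and 11.89, 11.95 and 12.01 in wildtype (Cog). The Schmid mice were the lowest 3 of the 12. The change in Schmid was -0.62 (SE 0.19, -1.04 to -0.21, adjusted p = 0.0366), 1.54-fold lower and below the 2-fold call. For Cog mice the value was 0.22 (adjusted p = 0.533). The mutants' changes differed by -0.84 (-1.43 to -0.26, adjusted p = 0.0534), and without Cog replicate 2, the lowest Cog mouse, it was -1.05 (adjusted p = 0.0126).

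The RANKL system itself was close to the detection limit on its ligand side. Both Tnfsf11 probes, which lie next to each other on the - strand of chromosome 14 (chr14:72958504-72958563 and chr14:72958725-72958784, mm7), were well above background on only 2 of 12 arrays, wildtype (Schmid) replicate 1 and wildtype (Cog) replicate 3. One probe read 9.24, 9.15 and 9.15 in Schmid, 9.79, 9.52 and 9.38 in wildtype (Schmid), 9.57, 9.43 and 9.71 in Cog, and 9.94, 9.39 and 9.52 in wildtype (Cog). The other read 8.97, 9.08 and 9.22 in Schmid, 9.53, 9.41 and 9.47 in wildtype (Schmid), 9.58, 9.41 and 9.45 in Cog, and 9.51, 9.37 and 9.49 in wildtype (Cog). Schmid lay below its wildtype without overlap in both. The measured differences were -0.38 and -0.38, with adjusted p of 0.104 and 0.0246 in the limma fit, but with 1 wildtype array of 3 and 0 Schmid arrays above background neither group's level supports a fold change. Between Cog and wildtype (Cog) the probes differed by -0.05 and 0.03, with adjusted p of 0.902 and 0.913, from values mostly below background.

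RANK was measured by 2 probes on the + strand of chromosome 1. The brighter Tnfrsf11a probe (chr1:105744381-105744440, mm7) was well above background on 8 of 12 arrays and read 10.05, 9.94 and 10.01 in Schmid, 9.54, 9.66 and 10.23 in wildtype (Schmid), 10.14, 9.04 and 9.45 in Cog, and 10.06, 10.20 and 10.21 in wildtype (Cog). It did not move in the same sense in the mutants, with 0.19 in Schmid (-0.38 to 0.76, adjusted p = 0.616) and -0.61 in Cog (-1.18 to -0.04, adjusted p = 0.205), but the difference of 0.80 (-0.01 to 1.60) had an adjusted p of 0.157. Without Cog replicate 1 it was 1.10 (adjusted p = 0.0321). The other probe (chr1:105746736-105746795) was well above background on 2 arrays, both of wildtype mice. Its measured difference in Cog was -1.04 (adjusted p = 0.143), where neither group's level supports a fold change. That probe holds a run of 19 bases in 2 copies, which start at its bases 1 and 30:
Tnfrsf11a repeat unit: atctagaccttaacagtaa

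Tnfrsf11b, the decoy receptor (probe at chr15:54311325-54311384, - strand, mm7), was well above background on all 12 arrays. It read 12.51, 12.09 and 12.40 in Schmid, 12.54, 11.91 and 11.26 in wildtype (Schmid), 10.95, 10.91 and 12.29 in Cog, and 12.37, 11.48 and 11.64 in wildtype (Cog). Mutants and wildtypes overlapped. It changed by 0.43 in Schmid (-0.50 to 1.36, adjusted p = 0.472). In Cog it changed by -0.45 (-1.38 to 0.48, adjusted p = 0.582). The test of the difference, 0.88 (-0.43 to 2.19), gave an adjusted p of 0.330. A ratio of ligand to decoy was not formed, since Tnfsf11 was below background on most arrays.

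The M-CSF side held the call in Schmid, at the receptor. Csf1, the ligand (probe at chr3:107559703-107559762, - strand, mm7), was printed as 10 spots spread over rows 121 to 459, and the SD of those spots on 1 array was 0.103 to 0.181 log2 units, below the SD of 0.216 of the 12 array means. Its means over spots were 10.24, 10.20 and 10.17 in Schmid, 10.46, 10.30 and 10.40 in wildtype (Schmid), 10.39, 10.75 and 10.08 in Cog, and 10.17, 10.43 and 9.91 in wildtype (Cog). The Schmid mice lay just below their wildtypes, by -0.18 (-0.57 to 0.21, adjusted p = 0.471). The change in Cog was 0.24 (-0.15 to 0.63, adjusted p = 0.476), with overlapping groups. Both intervals stay within 2-fold.

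Csf1r was measured by 3 probes on chromosome 18. Log2 intensities of the brightest (A_51_P365885, chr18:61520169-61520228, + strand, mm7) were 11.19, 10.63 and 10.99 in Schmid and 13.35, 11.94 and 12.67 in wildtype (Schmid). They were 11.40, 10.91 and 13.04 in Cog and 13.53, 12.87 and 12.07 in wildtype (Cog). The 3 Schmid mice lay below all 3 of their wildtype mice, while Cog replicate 3 lay among the wildtypes. The change in Schmid was -1.72 (SE 0.56, 95% interval -2.95 to -0.48, adjusted p = 0.0478), or 3.29-fold lower. In Cog it was -1.04 (-2.28 to 0.20, adjusted p = 0.317), and the changes of the 2 mutants differed by -0.68 (adjusted p = 0.583), so the fall is not shown to be larger in Schmid.

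The Csf1r call stood near the threshold. Leaving out any Schmid mouse, any wildtype (Schmid) mouse, Cog replicate 1 or wildtype (Cog) replicate 2 gave changes of -2.07 to -1.37 with adjusted p of 0.0526 to 0.125. With the values in the authors' deposited table it was -1.70 (adjusted p = 0.0515).

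The other Csf1r probes did not give the same picture. One (A_52_P570471, chr18:61499207-61499266) read 9.66, 9.75 and 9.83 in Schmid against 9.27, 9.93 and 9.46 in wildtype (Schmid), a change of 0.19 (adjusted p = 0.561). It changed by -0.24 in Cog (adjusted p = 0.590) and was well above background on 8 of 12 arrays. The third (A_52_P602091, chr18:61519183-61519543), on row 129, was above background on 6 arrays and read 9.58, 8.99 and 9.55 in Schmid, 10.02, 9.82 and 10.02 in wildtype (Schmid), 9.62, 9.69 and 10.67 in Cog, and 9.18, 9.34 and 9.49 in wildtype (Cog). It read lower in every Schmid mouse than in the wildtypes (-0.58, adjusted p = 0.133). In every Cog mouse it read higher (0.66, adjusted p = 0.187). The Schmid change minus the Cog change was -1.24 (SE 0.38, -2.07 to -0.41, adjusted p = 0.0480) and passed the call, but with the trend along array rows removed it was -0.91 (adjusted p = 0.126). Without Cog replicate 3 it was -0.90 (adjusted p = 0.0458), under 2-fold, and without any Schmid, wildtype (Schmid) or wildtype (Cog) mouse the adjusted p was 0.0645 to 0.101. In Cog the brightest probe and this one thus had opposite signs.

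**Figure D4:**
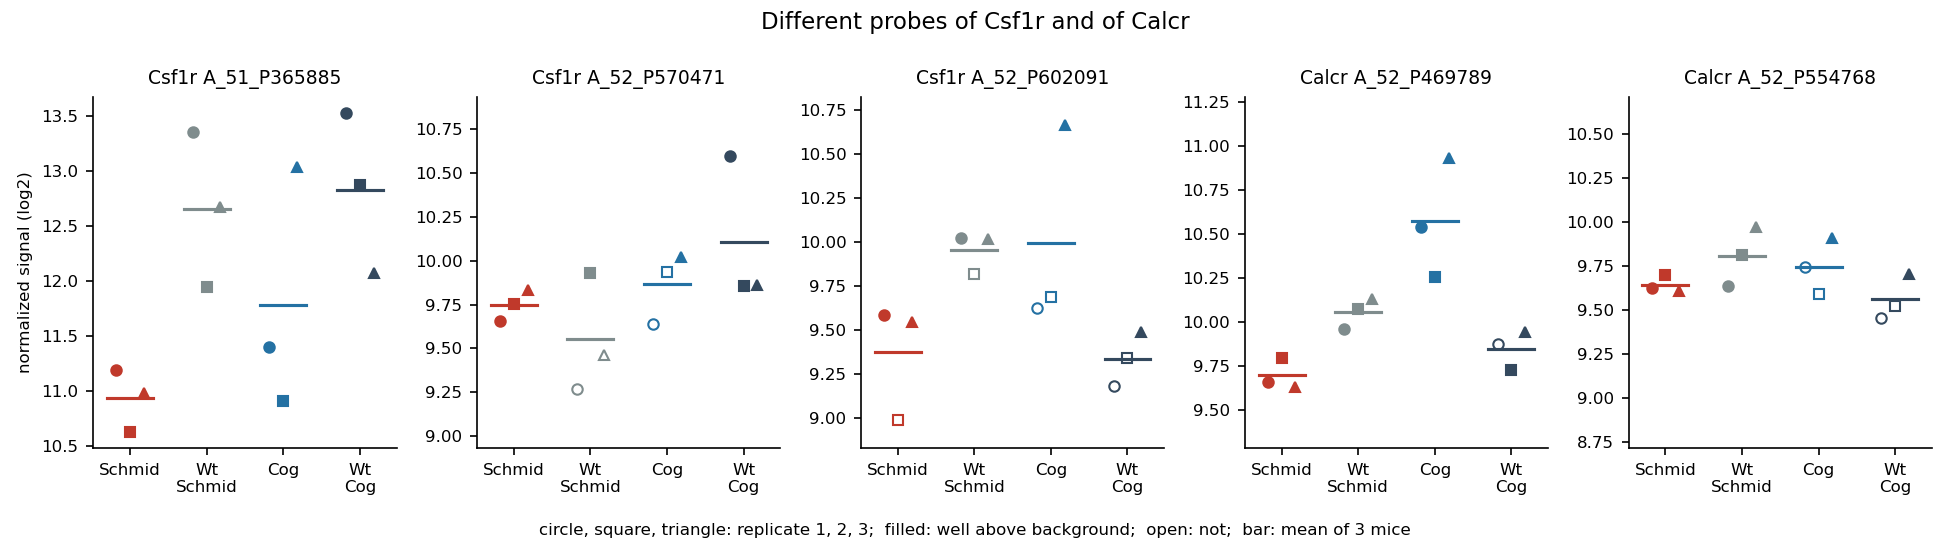
Log2 normalized intensity of the 3 Csf1r and 2 Calcr probes on the 12 arrays, with circles, squares and triangles for replicates 1, 2 and 3, filled where the spot was well above background, and bars at group means. The brightest Csf1r probe (A_51_P365885) shows the 3 Schmid mice below their wildtypes, A_52_P570471 shows them among their wildtypes, and the third shows Cog above its wildtypes.

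CSF1R is carried by macrophages and monocytes as well as by osteoclast precursors, and markers of other cells were lower in Schmid too. Of 11 macrophage and monocyte markers, a list that holds Csf1r itself, 4 were called lower in Schmid (Aif1, Cd52, Csf1r and Lyzs). The summed signal of the 11 was 14.16 to 14.84 in Schmid and 15.34 to 17.39 in wildtype (Schmid) on the log2 scale. Such a sum adds linear signals, so the brightest genes weigh most in it. Called lower were also 3 of 5 red cell, 3 of 6 endothelial, 1 of 8 osteoblast, 1 of 8 hypertrophic chondrocyte and 1 of 10 osteoclast markers, with 0 of 7 neutrophil markers and none of any of these lists higher. Of all probes, not only the brightest of each gene, 4.69% were called lower in Schmid. The red cell sum was 14.50 to 15.97 against 17.91 to 19.87, and the endothelial sum 12.49 to 13.01 against 14.22 to 14.97. The osteoclast sum was 15.01 to 15.71 in Schmid and 16.20 to 16.69 in wildtype (Schmid). Without Mmp9, its 1 called gene, the sum of the other 9 (added after the values were seen) was 14.86 to 15.54 in Schmid and 15.40 to 15.84 in wildtype (Schmid), and the groups overlapped. Itgb3 was the brightest of the 9 in every Schmid mouse (13.92 to 14.96) and in wildtype (Schmid) replicates 2 and 3 (14.81 and 15.35). That overlap thus rests largely on Itgb3. In Cog the macrophage sum was 15.58 to 16.49, against 14.99 to 15.73 in wildtype (Cog), and 0 of 11 of its markers were called by limma. Lyzs was the brightest gene of that sum, at 15.00 to 16.08 in Cog and 13.56 to 14.52 in wildtype (Cog). The markers went both ways. Without overlap, 3 of the 11 lay higher in Cog and 2 lower (Cd68 and Mpeg1), where 29.4% of all probes did not overlap. The endothelial sum was lower in Cog without overlap (13.51 to 14.31 against 14.56 to 14.90) and the neutrophil sum higher without overlap (14.49 to 16.92 against 13.47 to 13.98), with 0 of 6 and 0 of 7 markers called. The osteoclast sums in Cog (16.16 to 16.58) and wildtype (Cog) (15.99 to 17.19) overlapped. Called lower in Cog were 1 of 8 osteoblast and 1 of 8 hypertrophic chondrocyte markers, against 0.748% of all probes. Of 10 osteoclast and 5 red cell markers 0 were called in Cog. The part of these cell types in the fall of Csf1r was not tested.

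The wildtype groups, which differ in background and slide, give the size of difference found with no mutant allele. None of the 15 probes was called between them by limma, where 0.469% of all probes were, and 2 had an unadjusted p of at most 0.05, against 14.1% of all probes. The 3 mice of each group did not overlap for 3 of the 15 probes, all lower in wildtype (Cog), against 18.2% of all probes. Oscar was one of these, at -0.39 (adjusted p = 0.386), beside its change of -0.62 in Schmid. The others were the probes whose changes differed between the mutants. The brighter Calcr probe was at -0.21 (adjusted p = 0.624), beside its changes of -0.36 in Schmid and 0.73 in Cog. The Csf1r probe on row 129 was at -0.62 (adjusted p = 0.329, unadjusted p = 0.0418 in limma), a gap close in size to its changes of -0.58 in Schmid and 0.66 in Cog.

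Around the 10 genes, 16 further genes of the resorption machinery were measured, and 3 were called in Schmid. Of all probes, not only the brightest of each gene, 10.5% were called in Schmid and 2.31% in Cog. Mmp9 fell, with 12.52, 11.70 and 12.75 in Schmid against 15.91, 14.96 and 14.55 in wildtype (Schmid), a change of -2.81 (SE 0.50, adjusted p = 0.00363) or 7.03-fold. A dimmer Mmp9 probe changed by -1.80 (adjusted p = 0.166). The proton pump subunits Atp6v1a (1.65, SE 0.46, adjusted p = 0.0283) and Atp6v1b2 (1.21, SE 0.25, adjusted p = 0.00657) rose. Atp6v1b2 was well above background on 4 arrays, and without Schmid replicate 1 or wildtype (Schmid) replicate 2 its change was 0.99 or 0.98, just under 2-fold. Both subunits serve acidification in many cell types. Atp6v1a changed by -0.82 in Cog (adjusted p = 0.344), and its change in Schmid minus that in Cog was 2.47 (adjusted p = 0.0297).

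In Cog, 1 of the 16 was called, Tcirg1, the a3 subunit of the osteoclast proton pump. It read 11.03, 11.33 and 10.98 in Cog against 12.09, 12.18 and 12.31 in wildtype (Cog), a fall of 1.08 log2 units (SE 0.16, adjusted p = 0.00828). It was not called with the scanner's processed signals at a common 75th percentile (-1.05, adjusted p = 0.171) or with the row trend removed (a change just under 2-fold, adjusted p = 0.00728). In Schmid Tcirg1 read 10.68, 10.75 and 10.80 against 11.87, 11.69 and 11.27, a change of -0.87 (adjusted p = 0.00412) that stayed under 2-fold. No mutant mouse reached its wildtypes, and the changes of the 2 mutants differed by 0.21 (-0.30 to 0.71, adjusted p = 0.558). The median of the 16 genes was -0.33 in both comparisons, against -0.09 in Schmid and -0.00 in Cog for the brightest probes of all genes.

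**Figure D5:**
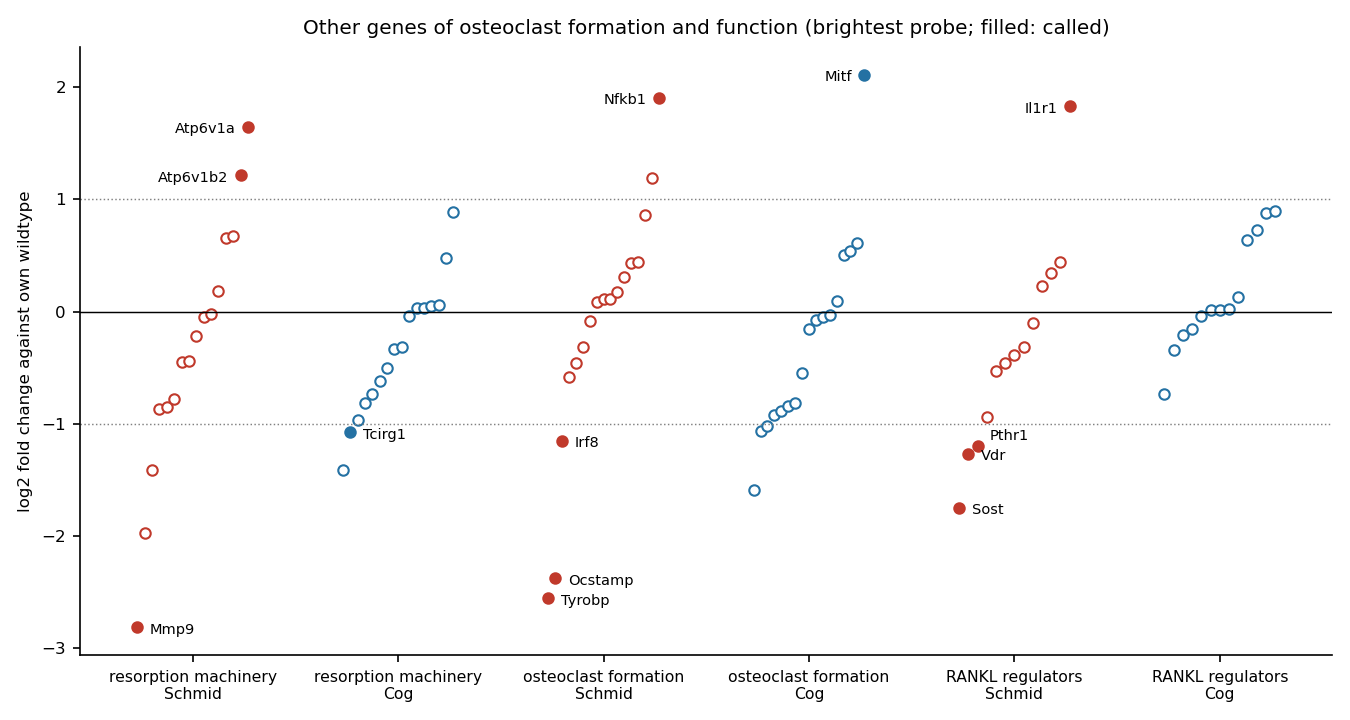
Difference in log2 normalized signal, mutant minus its own wildtype, at the brightest probe of every measured gene of the 3 lists (16 genes of resorption, 17 of osteoclast formation, 13 regulators of RANKL), sorted within each column. Filled, named points passed the call, open points did not, dotted lines mark a 2-fold change, and Ocstamp is the gene that the array names 4833422F24Rik. Mmp9, Tyrobp and Ocstamp lie between -2.81 and -2.38 in Schmid.

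Of 17 measured genes of osteoclast formation, 4 were called at their brightest probes in Schmid, 3 lower and 1 higher, against 10.5% of all probes. Tyrobp (DAP12, the adaptor through which several osteoclast receptors signal) fell by 2.56 log2 units (SE 0.50, adjusted p = 0.00563), from 14.91, 13.87 and 12.83 to 11.76, 10.64 and 11.54. 4833422F24Rik, which the RefSeq table names Ocstamp, encodes a membrane protein needed for osteoclast fusion. Ocstamp fell by 2.38 (SE 0.53, adjusted p = 0.0101), from 14.15, 13.22 and 13.36 to 11.25, 10.82 and 11.54, while its other probe changed by -0.80 (adjusted p = 0.319). Irf8 is a transcription factor of macrophages that restrains osteoclast formation. Irf8 changed by -1.15 (adjusted p = 0.0446), with groups that overlapped, and its other probe by 0.22. Its call was lost on leaving out any array but wildtype (Schmid) replicate 3, with changes of -1.31 to -0.74 and adjusted p of 0.0523 to 0.128. The gene that rose was Nfkb1 (1.91, SE 0.55, adjusted p = 0.0309), at 1 of 4 probes, the other 3 lying at -0.35 to 0.30 uncalled. The median change of the 17 in Schmid was 0.11. Fcer1g was not called at its brightest probe (-0.32 in Schmid and -0.84 in Cog, limma adjusted p of 0.626 and 0.308). Its other probe was called lower in both mutants, at -2.58 in Schmid (SE 0.26, adjusted p = 0.000245) and -1.28 in Cog (adjusted p = 0.0245). At that probe the Schmid change minus the Cog change was -1.30 (adjusted p = 0.0379).

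Nfatc1, the master transcription factor of the osteoclast, was at 10.72, 11.54 and 11.95 in Schmid and 11.73, 8.53 and 10.39 in wildtype (Schmid). Its change of 1.19 (-0.39 to 2.76) had an adjusted p of 0.239. In Cog, 1 of the 17 was called at its brightest probe, against 2.31% of all probes. Mitf, the factor that acts on Ctsk and Acp5, was at least 3.70-fold higher in Cog, since no wildtype (Cog) array was above background (its level there was taken as the lowest signal well above background on the array or its own, whichever was higher), with an adjusted p of 0.0179 for the measured 2.11. Its other probe changed by -0.07. Tm7sf4 (DC-STAMP), needed for fusion, was at 8.40, 9.54 and 9.71 in Cog and 11.22, 10.68 and 10.51 in wildtype (Cog), a change of -1.59 with an adjusted p of 0.0563.

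Of 13 measured genes that regulate RANKL or act beside it, 4 were called in Schmid, against 10.5% of all probes, and 0 in Cog, against 2.31%. In Schmid 10 of the 13 had an unadjusted p of at most 0.05 in limma, against 39.3% of all probes. In Cog 3 of the 13 did, against 21.3%. Pthr1, the receptor for parathyroid hormone and its related peptide, fell by 1.20 (SE 0.18, adjusted p = 0.00156) and its other probe by 1.33. Vdr, the vitamin D receptor, fell by 1.27 (SE 0.35, adjusted p = 0.0272). Sost, which encodes the Wnt antagonist sclerostin, read 10.22, 10.20 and 10.27 in Schmid against 11.63, 12.18 and 12.12, a fall of 1.75 (SE 0.20, adjusted p = 0.00044). In Cog it changed by 0.88 (adjusted p = 0.0377), under 2-fold, and its Schmid change minus its Cog change was -2.63 (adjusted p = 0.000708). Its other probe changed by 0.17 in Schmid. Il1r1, the interleukin-1 receptor, rose by 1.83 (SE 0.49, adjusted p = 0.0241).

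Several of these calls were lost when 1 mouse was left out, while those on Mmp9, Tyrobp, Ocstamp, Pthr1 and Sost in Schmid were made in each of 22 settings. Atp6v1a and Nfkb1 were not called when any 1 Schmid mouse or wildtype (Schmid) replicate 2 or 3 was left out, with changes of 1.23 to 1.75 and 1.61 to 1.98 and adjusted p of up to 0.106 and 0.111. Vdr was not called without Schmid replicate 2 or 3 or any wildtype (Schmid) mouse (-1.38 to -1.07, adjusted p up to 0.0917). Il1r1 was not called without Schmid replicate 1 or wildtype (Schmid) replicate 2 or 3 (1.45 to 1.81, adjusted p up to 0.0946). Mitf in Cog was not called without wildtype (Cog) replicate 2 or 3 (1.93 and 2.00, adjusted p up to 0.0779). Some calls were also lost with every mouse kept. With processed signals, quantile normalized, Atp6v1a (limma adjusted p = 0.0657) and Il1r1 (0.0578) were not called. With only the groups compared, Atp6v1a (0.0760) and Mitf in Cog (0.0568) were not called. Irf8 was not called in either setting, with array weights or with the row trend removed (0.0550 to 0.112).

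The genes whose pattern over the 12 arrays was most like the mean standardized profile of the 6 osteoclast genes, among 16725 genes, were Zfp69 (r = 0.938), Mmp16 (r = 0.914), Ogfrl1 (r = 0.909), Man2a1 (r = 0.906) and Parp14 (r = 0.897). That profile includes Atp6v0d2, which never rose above background, and the arrays share their groups, so these values describe likeness alone.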

How the data were processed

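Scanner files of 12 single-colour (Cy3) Agilent 44K arrays were analysed. The authors extracted spot intensities with Feature Extraction 9.5.3. The deposited intensity columns used here were the mean signal and the median local background. From these, normexp background correction (offset 50), log2 and quantile normalization between arrays were applied to non-control spots. Spots flagged as outliers were left out and spots of 1 probe averaged. A second deposited table held log2 values that the authors had normalized and served as an alternative. Group means were fitted over all 12 arrays with limma 3.58.1 (R 4.3.3, with 8 residual degrees of freedom). Benjamini-Hochberg adjustment ran over all probes. A call needed an adjusted p of at most 0.05 and a change of at least 2-fold, both ways of change counted. All probes of the 10 genes are described. The brightest probe stands for a gene, and genes of the other lists are named where called, Nfatc1 and Tm7sf4 being added for their role. One listed gene of osteoclast formation is not reported here and was left out of that list's counts. The genes and lists were chosen with earlier results of these data known. Arrays of a group came from separate mice, and their number, 3, limits the precision. Limma was tested on simulated data. Mouse promoter windows are RefSeq GRCm38.p6. Probe positions are those of the files (mm7). A probe below background in 1 group is given as a bound, the other group's mean against, on each of its arrays, the lowest signal well above background or the probe's own, whichever is higher, and only where the other group was above background on all arrays. Alternatives were 4 other scalings or signals, filters on dim probes, array weights, blocks for slide and replicate number, only the groups compared, removal of the row trend and leaving out each array.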

Additional observations from a re-analysis of the deposited data

Results flagged for a closer look

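For 2 probes the change in Schmid differed from the change in Cog by a test of the difference itself (the contrast of both changes in the limma fit). The brighter Calcr probe gave -1.09 log2 units (adjusted p = 0.0103), with a change of -0.36 in Schmid and 0.73 in Cog. Over the alternative settings this difference ran from -2.55 to -0.91. The Csf1r probe on row 129 gave -1.24 (adjusted p = 0.0480), with -0.58 in Schmid and 0.66 in Cog, and was well above background on 6 of 12 arrays.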

How the results depend on the processing

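In Schmid the count of called member probes was 1. It was 2 with normexp signals at a common 75th percentile, 3 with the scanner's processed signals, quantile normalized or at a common 75th percentile, and 0 with the deposited table. Leaving out 1 array gave 0 to 1. A second Csf1r probe joined at the 75th percentile of normexp signals, and Calcr and Tnfsf11 with processed signals (Tnfsf11 at -1.49 and -1.71). In Cog the count of 0 became 1 with processed signals, quantile normalized (Calcr, 1.37, adjusted p = 0.0235), and 1 with slide as a random block (Tnfrsf11a), and was 0 to 1 with an array left out. The 2 probes that differed between mutants became 3 with processed signals, quantile normalized (Calcr, Oscar and Tnfsf11), 1 with the row trend removed and 0 to 3 with an array left out (3 without Cog replicate 1 or 2, 0 without Cog replicate 3). The cause was not tested. The count between wildtypes was 0 in each setting. Of 60 member changes, 22 changed sign in some setting, none of them called. The Acp5 and Ctsk correlation was 0.897 to 0.966 under 5 other scalings, chosen after seeing the data. Scaling to the 75th percentile moved the median of all probes in Schmid from -0.06 to -0.35 (normexp) and -0.40 (processed), and in Cog to 0.43 (processed). The share of higher calls in Schmid was 55.2%, and 42.6, 42.0 and 42.5% with the 75th percentile of normexp signals and the 2 processed settings. In Cog it was 67.6%, and 52.6% with array weights. Same-numbered mice of Schmid and its wildtype deviated together with r of 0.193, 0.171 and 0.066 and those of Cog with -0.116, 0.072 and -0.106. For 12807 probes that every array measured well above background they were 0.306, 0.283 and 0.117, and -0.209, 0.153 and -0.201, and replicate 1 of both wildtypes had 0.505. The labels do not say what a number marks. With the replicate number as a block the counts were 1 in Schmid, 0 in Cog, 2 for the difference and 0 between wildtypes. No other call of a member changed under the block. Signals near background limit Tnfsf11, Tnfrsf11a, Atp6v0d2, both Calcr probes and the dimmer Csf1r probes.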
